A study of Mus musculus with 12 samples.

Results

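The cytosolic ribosomal protein genes of mouse acute myeloid leukaemia cells were described across 3 kinase inhibitors and their vehicle. Members were all symbols made of Rpl or Rps with a number, optionally followed by a or x, together with Rplp0, Rplp1, Rplp2 and Rpsa, provided that their mean was at least 1 FPKM (fragments per kilobase of transcript, scaled to the mapped fragments of the library) over the 12 libraries. The deposited file listed 23234 genes, of which 10305 reached that mean, and 77 of these were members. All 77 symbols that matched the pattern passed the minimum, and none was at 0 in any library. They comprised 46 proteins of the large subunit and 31 of the small subunit. The pattern leaves out ribosomal proteins with other names, of which Fau and Gnb2l1 (also called Rack1) are described separately.

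The cells were primary leukaemia cells of the genotype NRASG12V/Mll-AF9, on an FVB/n by C57/BL/6J F1 background, so every group carried the same activated NRAS and the same Mll-AF9 fusion gene. They were kept in RPMI medium with 10% FBS and 1 ng/ml GM-CSF for 24 h, with 20 µM PD325901, an inhibitor of the kinase MEK, with 26 µM RAD001, an inhibitor of mTOR complex 1, with 20 µM GDC0941, an inhibitor of class I PI3 kinases, or with DMSO, and 3 libraries of total RNA were made per group. It is not stated whether the numbered libraries of a group came from separate cultures, animals or leukaemias, so p-values measure only the spread between these samples, which may be technical. One dose and 1 time were used per inhibitor and no library of untreated cells was included, so nothing is known here of the dose response or of DMSO itself.

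Each cytosolic ribosome holds a single copy of most ribosomal proteins, and their genes are among the most strongly transcribed of any growing cell. Their mRNAs begin with a run of pyrimidines, the terminal oligopyrimidine motif, through which translation of the whole class is raised when mTOR complex 1 is active and held back when it is not, with LARP1 as the binding protein. That control acts on translation, and an mRNA level measured by RNA-seq does not report it. The RAS, MEK and ERK route acts on ribosome production mainly through MYC and the RNA polymerases that make ribosomal RNA.

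The 60 bases around the annotated start of 8 members are shown, since the class is known for a pyrimidine run at the start and these members are returned to below. Sequences are those of RefSeq on GRCm38.p6, read on the strand of the gene, with 30 bases before and 30 bases from the start. Capitals mark the longest run of C and T between 20 bases before and 30 bases after the start. Rps2 lies on the plus strand at chr17:24720033-24720092, Rpl12 on the plus strand at chr2:32961682-32961741, Rps18 on the minus strand at chr17:33955636-33955695 and Rpl26 on the plus strand at chr11:68901536-68901595. Rps6 lies on the minus strand at chr4:86857338-86857397, Rpl35 on the minus strand at chr2:39005102-39005161, Rps27 on the minus strand at chr3:90213619-90213678 and Rps9 on the plus strand at chr7:3704011-3704070. The first 6 were lower with PD325901, Rps27 had the lowest level of all members, and Rps9 was among those that changed least with PD325901.
Rps2: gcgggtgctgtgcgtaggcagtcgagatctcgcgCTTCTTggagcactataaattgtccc
Rpl12: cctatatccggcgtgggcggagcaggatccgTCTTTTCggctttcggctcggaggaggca
Rps18: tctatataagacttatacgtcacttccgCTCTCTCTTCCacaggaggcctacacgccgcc
Rpl26: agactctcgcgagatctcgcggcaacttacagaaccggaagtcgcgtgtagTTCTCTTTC
Rps6: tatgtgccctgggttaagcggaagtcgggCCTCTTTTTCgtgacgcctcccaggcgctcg
Rpl35: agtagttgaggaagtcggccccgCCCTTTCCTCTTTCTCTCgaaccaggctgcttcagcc
Rps27: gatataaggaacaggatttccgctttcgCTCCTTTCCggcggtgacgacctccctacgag
Rps9: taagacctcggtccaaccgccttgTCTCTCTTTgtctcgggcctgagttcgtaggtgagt

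Rpl35 had the longest run of those shown, 18 bases, whereas the runs of Rps2 and Rpl12 had 6 and 7 bases. Counted from the start as base 1, that of Rpl26 began at base 22 and that of Rps2 at base 5, so neither lay at the annotated start itself. RefSeq start sequences were matched for 57 of the 77 members, and a gene with several starts was counted as holding a motif if any of its starts did. A run of at least 8 pyrimidines on the gene's strand in that window was present in 32 of 57 members (56.1%), against 21.5% of 27025 genes with a start sequence. The letters TCTTTCC, which are themselves a pyrimidine run, were found on the gene's strand within 50 bases of the start in 10 of 57 members (17.5%), against 1.51% of all genes. CCGGAAG, the core bound by ETS factors, was found on either strand between 250 bases before and 50 after the start in 24 of 57 members (42.1%), against 9.93% of all genes. CACGTG, the E-box bound by MYC, was found in the same window in 6 members (10.5%), against 8.09% of all genes. TATAAA, searched on the gene's strand in the 50 bases before the start, was in none of the 57 members and in 3.15% of all genes. AAGATGGC, searched on the gene's strand within 50 bases of the start, was in 1 member (1.75%) and in 1.14% of all genes. These matches describe letters and not sites.

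The smallest steps between low values gave relative depths of 0.847 to 1.21. Both extremes were RAD001 libraries, replicate 1 at 0.847 and replicate 2 at 1.21. Replicate 1 was also the highest RAD001 library in most members, as given below, and the part of depth in this was not tested. Total counts are unknown, so no counting interval can be given. The 11 myeloid markers (Ptprc, Itgam, Sfpi1, Cebpa, Csf2ra, Csf3r, Mpo, Fcgr3, Cd33, Kit and Cd34) were all above the minimum, with summed levels of 1445 to 1541 FPKM with PD325901, 2415 to 2568 with RAD001, 2065 to 2283 with GDC0941 and 1416 to 1485 with DMSO. By the limma test given below, 6 of the 11 were higher and 3 lower with PD325901 (54.5% and 27.3%, against 18.4% and 28.2% of all genes). With RAD001 6 were higher and 2 lower (54.5% and 18.2%, against 15.4% and 15.9%), and with GDC0941 6 and 2 (against 11.6% and 12.7%). Their log2 changes ran from -2.39 to 1.67, -3.07 to 1.27 and -2.31 to 1.03, so the sums hide opposite movements. Summed levels of the 3 T cell markers were 4.4 to 6.96 FPKM with PD325901, 0.0809 to 2.02 with RAD001, 0 to 1.19 with GDC0941 and 0.171 to 3.82 with DMSO. Only 1 of them reached the minimum, and by limma it was higher with PD325901 (log2 change 1.27). Its changes with RAD001 and GDC0941 (-0.40 and -0.60) did not pass. The 3 B cell markers stayed below 0.234 FPKM in every library and the 3 erythroid markers below 3.13. The 4 endothelial and stromal markers summed to 7.11 to 10.5 FPKM with PD325901, 6.90 to 8.24 with RAD001, 1.72 to 2.5 with GDC0941 and 12.5 to 16.8 with DMSO. Only 1 of these 4 reached the minimum. By limma it was lower with PD325901, RAD001 and GDC0941 (log2 changes -0.65, -0.85 and -2.31). Neither those markers nor the myeloid ones were tested for a part in the results that follow.

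Most members were abundant. In DMSO their median level was 813 FPKM, 23 of 77 were above 1000 FPKM and 38 ranked among the 100 most abundant genes. The most abundant were Rpl32, Rpl41, Rps12, Rpl39 and Rplp1, which averaged 1754 ± 0.764, 1751 ± 91.3, 1606 ± 129.6, 1564 ± 76.0 and 1477 ± 106 FPKM in DMSO (SD, n = 3 each). The coefficient of variation over 3 libraries was below 10% for 72 of 77 members with PD325901, 33 with RAD001, 39 with GDC0941 and 73 with DMSO. Median levels were 606 FPKM with PD325901, 921 with RAD001 and 942 with GDC0941. Since FPKM is a share of each library, a lower level cannot be told apart from more RNA of other genes, and in bulk RNA fewer cells of a type cannot be told apart from less RNA per cell.

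A few members stood far below the others in DMSO: Rps27 at 2.99 FPKM, Rpl34 at 10.7, Rpl30 at 24.3, Rpl26 at 47.1, Rps15a at 81.6 and Rpl22 at 99.98. Ribosomal protein genes have many processed copies, and reads that match several copies can be split or lost depending on how the authors' software placed them. In the GENCODE transcripts of GRCm38, 76 of 77 members shared at least 1 window of 50 bases with a transcript of another gene, and the median share of windows was 61.2%. The share was 98.6% for Rps27, whose main partner was Rps27rt, 50.6% for Rpl34, 76.4% for Rpl30, 71.3% for Rpl26, 49.1% for Rps15a and 24.5% for Rpl22. Rpl10, at 1366 FPKM in DMSO, shared 92.1%. Across the 77 genes the share and the DMSO level had a Spearman rho of -0.15, a description across genes, which are not independent. Beside Rpl34 the table lists Rpl34-ps1, named as a pseudogene, at 645 ± 20.5 FPKM with PD325901, 1045 ± 176 with RAD001, 971 ± 26.8 with GDC0941 and 825 ± 40.5 with DMSO (SD, n = 3 each). The ratio of Rpl34-ps1 to Rpl34 was 122 ± 15.2 with PD325901, 92.3 ± 10.1 with RAD001, 88.1 ± 18.5 with GDC0941 and 78.5 ± 15.3 with DMSO. With such sharing, levels and changes of Rps27, Rpl34, Rpl30 and Rpl26 are uncertain as measures of the gene, as are those of other members to the extent that they share windows.

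Most ribosomal protein genes were lower with PD325901. Together the 77 genes took 8.48%, 9.95% and 10.1% of all FPKM in the PD325901 libraries, against 11.4%, 12.6% and 12.4% in the DMSO libraries. These groups did not overlap. For RAD001 the shares were 13.5%, 12.5% and 11.7%, and for GDC0941 they were 11.3%, 13.5% and 13.4%, both overlapping DMSO. The sums of FPKM over the members were 46477 ± 1666 with PD325901, 71218 ± 7947 with RAD001, 71228 ± 6469 with GDC0941 and 59855 ± 1956 with DMSO (SD, n = 3 each).

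**Figure D1:**
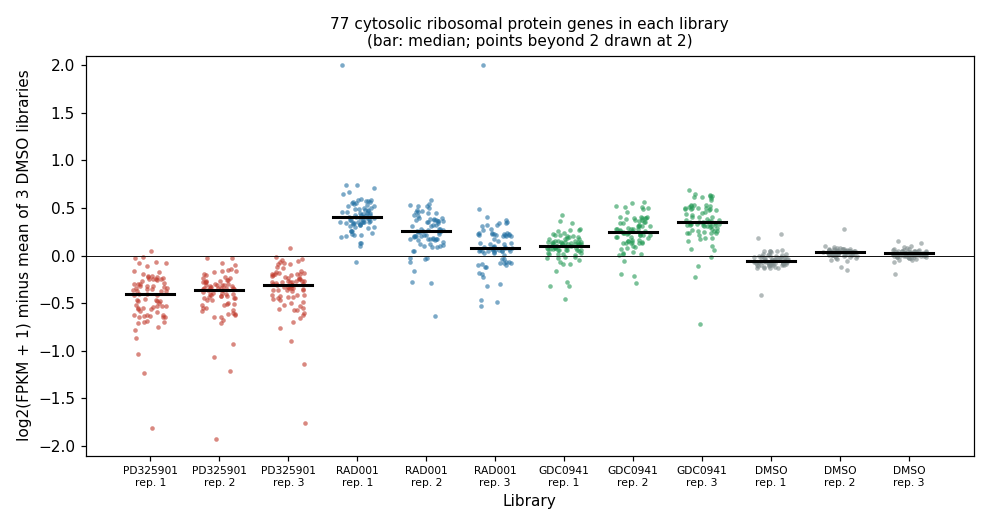
Each point is 1 of the 77 members in 1 library (horizontal axis), plotted as log2(FPKM + 1) minus the mean of the 3 DMSO libraries, and the bar is the median over members. Medians were -0.40, -0.36 and -0.31 with PD325901, 0.41, 0.25 and 0.08 with RAD001, 0.11, 0.25 and 0.35 with GDC0941, and -0.06, 0.03 and 0.02 with DMSO.

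The comparison of PD325901 with DMSO asked which mRNAs differed after 24 h with this MEK inhibitor. With 1 dose of 1 compound, an effect through MEK cannot be told apart from its other effects. Genes were compared as log2(FPKM + 1) by limma with Benjamini-Hochberg adjusted p under 0.05, which holds for all adjusted p-values given here, and changes are on that scale with their SE. By this test 53 members fell and none rose, against 28.2% of all genes tested that fell and 18.4% that rose. At an unadjusted limma p under 0.05, 63 members fell and 0 rose. The share of all genes at the unadjusted threshold was not counted, here or below, so such counts have no background. The median change of members was -0.35, with quartiles at -0.49 and -0.27, against -0.06 over all genes tested. The change was negative for 76 of 77 members, and for 71 all 3 PD325901 libraries were below all 3 DMSO libraries, as for 36.9% of all genes. Of the large subunit 35 of 46 fell, with a median of -0.39, and of the small subunit 18 of 31 fell, with a median of -0.31. The difference between subunits was not tested. The 53 falls became 35 with quantile normalization, 37 with either median-ratio scaling, 40 with no filter and 50 with equal total FPKM. In none of these settings did a member rise.

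Rpl26, a protein at the exit of the peptide tunnel, had 12.4, 11.4 and 12.9 FPKM with PD325901, against 34.5, 56.4 and 50.6 FPKM with DMSO. All PD325901 values were below all DMSO values, and it fell by 1.83 ± 0.21, the most of any member (adjusted p = 5.28e-05). Rps2, which lies at the entry of the mRNA channel, had 589, 520.2 and 549 FPKM with PD325901, against 1104, 1295 and 1230.5 FPKM with DMSO. Without overlap it fell by 1.13 ± 0.14 (adjusted p = 8.99e-05). Rpl12, at the base of the stalk where elongation factors bind, had 380.5, 470.4 and 482 FPKM with PD325901, against 882, 914 and 895 FPKM with DMSO. It too showed no overlap and fell by 1.02 ± 0.15 (adjusted p = 0.000267).

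Rps18, a protein of the head of the small subunit, had 696, 734 and 776 FPKM with PD325901, against 1214, 1172 and 1207 FPKM with DMSO, groups that did not overlap. It fell by 0.70 ± 0.12 (adjusted p = 0.00078). Rpl34 had 5.38, 4.55 and 6.16 FPKM with PD325901, against 12.2, 10.7 and 9.17 FPKM with DMSO, without overlap, and its far more abundant pseudogene row fell by 0.35 (adjusted p = 0.0213; 0.0519 to 0.0758 without PD325901 replicate 1 or 2 or DMSO replicate 2 or 3). Rpl34 itself fell by 0.88 ± 0.19 (adjusted p = 0.00312). Rpl3, which lies beside the peptidyl transferase centre, had 316, 319.8 and 344 FPKM with PD325901, against 477, 536 and 524 FPKM with DMSO. No PD325901 value reached the DMSO range, and it fell by 0.65 ± 0.13 (adjusted p = 0.00234). All 6 of these falls held when any 1 of the 6 libraries was left out.

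Not every member passed the test. Rps9, a protein of the small subunit, had 1163, 1159.9 and 1194 FPKM with PD325901, against 1216, 1237 and 1221 FPKM with DMSO. Its groups were apart but close, with a change of -0.06 ± 0.13 (adjusted p = 0.722). Rps29 had a change of -0.07 ± 0.12 (adjusted p = 0.672). Rps9 and Rps29 were singled out after their values were seen.

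**Figure D2:**
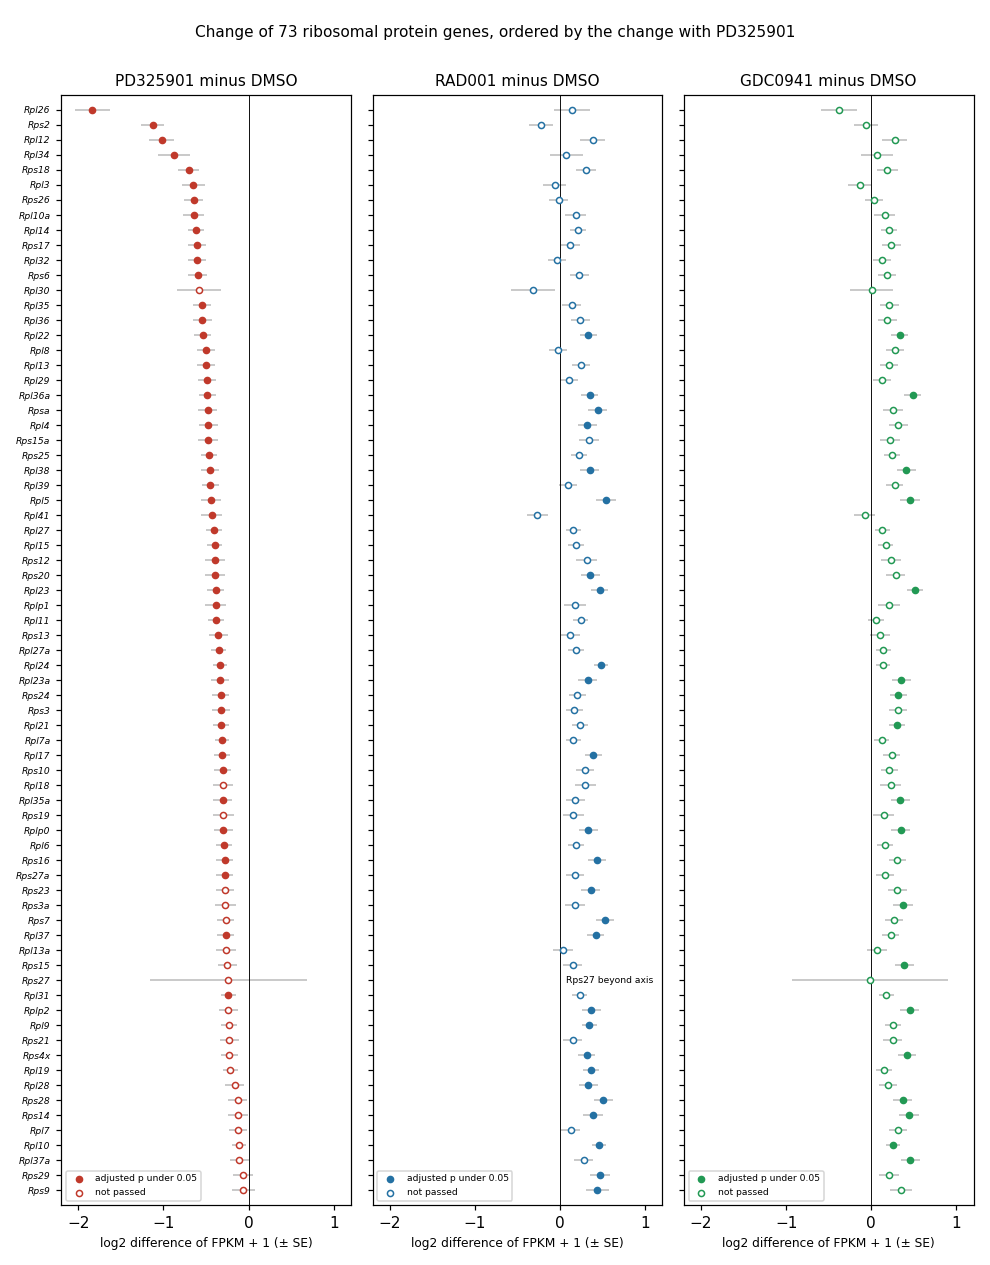
Each row is 1 of 73 members drawn, with its log2 difference of FPKM + 1 from DMSO on the horizontal axis of 3 panels (PD325901, RAD001, GDC0941), bars giving the SE and filled points an adjusted p under 0.05. With PD325901 51 filled points of those drawn lie left of 0, and with RAD001 and GDC0941 27 and 18 filled points lie right of 0, 1 of them (Rps27 with RAD001, 3.05) beyond the axis.

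With RAD001 the members were higher on the deposited scale. By limma 28 rose and none fell, against 15.4% of all genes tested that rose and 15.9% that fell, and at an unadjusted p under 0.05 the counts were 42 and 0. Their median change was 0.24, with quartiles at 0.16 and 0.36, against 0.00 over all genes, and 70 of 77 were positive. In 49 members all RAD001 libraries were above all DMSO libraries, as in 25.3% of all genes. The call depended on how libraries were scaled: with each library set to the same total FPKM 7 members rose and 2 fell, and the median was 0.05 while that of all genes moved to -0.16. With quantile normalization 1 member rose and 8 fell, and the median was -0.04 beside 0.02 over all genes, so the direction turned round. Without RAD001 replicate 1 or 2 or DMSO replicate 1 or 2 the count was 14 each, without DMSO replicate 3 it was 15 and without RAD001 replicate 3 it was 36. The RAD001 libraries were graded: replicate 1 was the highest of its group in 71 of 77 members and replicate 3 the lowest in 74.

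Rpl5, which carries the 5S ribosomal RNA into the ribosome together with Rpl11, had 458, 462 and 433 FPKM with RAD001, against 302, 313 and 312 FPKM with DMSO. The groups were well apart, and Rpl5 rose by 0.54 ± 0.12 (adjusted p = 0.00505). Rps7, a protein of the small subunit mutated in some patients with Diamond-Blackfan anaemia, had 692, 602 and 519 FPKM with RAD001, against 408, 425 and 411 FPKM with DMSO. It did not overlap and rose by 0.53 ± 0.10 (adjusted p = 0.00313). Rpl24, which forms a bridge between the subunits, had 608, 597 and 541 FPKM with RAD001, against 430.2, 419 and 403 FPKM with DMSO. Every RAD001 value was above every DMSO value, and the rise was 0.48 ± 0.08 (adjusted p = 0.00139). Rps28 rose by 0.51 ± 0.11 (adjusted p = 0.00625). These 4 rises held when any 1 of the 6 libraries was left out. With equal total FPKM those of Rps7, Rpl24 and Rps28 held, and with quantile normalization none of the 4 did.

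Rps27 was the exception in size. It had 78.7, 3.12 and 109 FPKM with RAD001, against 2.87, 2.67 and 3.44 FPKM with DMSO. RAD001 replicates 1 and 3 were high and replicate 2 lay within the DMSO range, and PD325901 (1.52 to 2.90 FPKM) and GDC0941 (2.19 to 4 FPKM) stayed at the DMSO level. Its rise of 3.05 ± 0.92 (adjusted p = 0.0266) did not pass without RAD001 replicate 1 (0.0806) or 3 (0.104) or without DMSO replicate 1 (0.059), 2 (0.0729) or 3 (0.0624). Nearly all windows of its transcript are found in other genes, as given above, and the part of such sharing in these values was not tested.

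Members were also higher with GDC0941 on the deposited scale. By limma 20 rose and none fell, against 11.6% of all genes tested that rose and 12.7% that fell, and at an unadjusted p under 0.05 the counts were 39 and 0. The median change of members was 0.23, with quartiles at 0.16 and 0.32, against 0.02 over all genes, and 72 of 77 were positive. In 56 members all GDC0941 libraries were above all DMSO libraries, as in 20.3% of all genes. With equal total FPKM 2 members rose, the median was 0.06 and that of all genes -0.14. With quantile normalization 2 rose and 4 fell, and the median was 0.02 beside 0.05 over all genes, so relative to all genes the direction turned round. The count was 34 without GDC0941 replicate 1, 6 without replicate 2 and 4 without replicate 3, and 7, 7 and 8 without DMSO replicate 1, 2 and 3. GDC0941 replicate 1 was the lowest of its group in 64 members and replicate 3 the highest in 62.

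Rpl23, a protein of the interface between the subunits, had 757, 877 and 933 FPKM with GDC0941, against 603, 598 and 589.9 FPKM with DMSO. There was no overlap, and it rose by 0.51 ± 0.10 (adjusted p = 0.00367). Rpl36a had 643, 687 and 674 FPKM with GDC0941, against 468, 489 and 474 FPKM with DMSO, and the groups were far apart. Its rise was 0.48 ± 0.10 (adjusted p = 0.00598), and those of Rpl23 and Rpl36a were the 2 that also passed with equal total FPKM and with quantile normalization. Rpl37a rose by 0.46 ± 0.11 (adjusted p = 0.0122), and with Rpl23, Rpl36a and Rps4x it made up the 4 members called whichever library was left out. Rplp2 rose by 0.45 ± 0.11 (adjusted p = 0.014; 0.0508 without GDC0941 replicate 3), Rpl5 by 0.45 ± 0.12 (adjusted p = 0.0162; 0.0546 without GDC0941 replicate 2 and 0.0547 without replicate 3) and Rps14 by 0.44 ± 0.12 (adjusted p = 0.0192; 0.0568 to 0.0696 without GDC0941 replicate 2 or 3 or DMSO replicate 2 or 3).

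**Figure D3:**
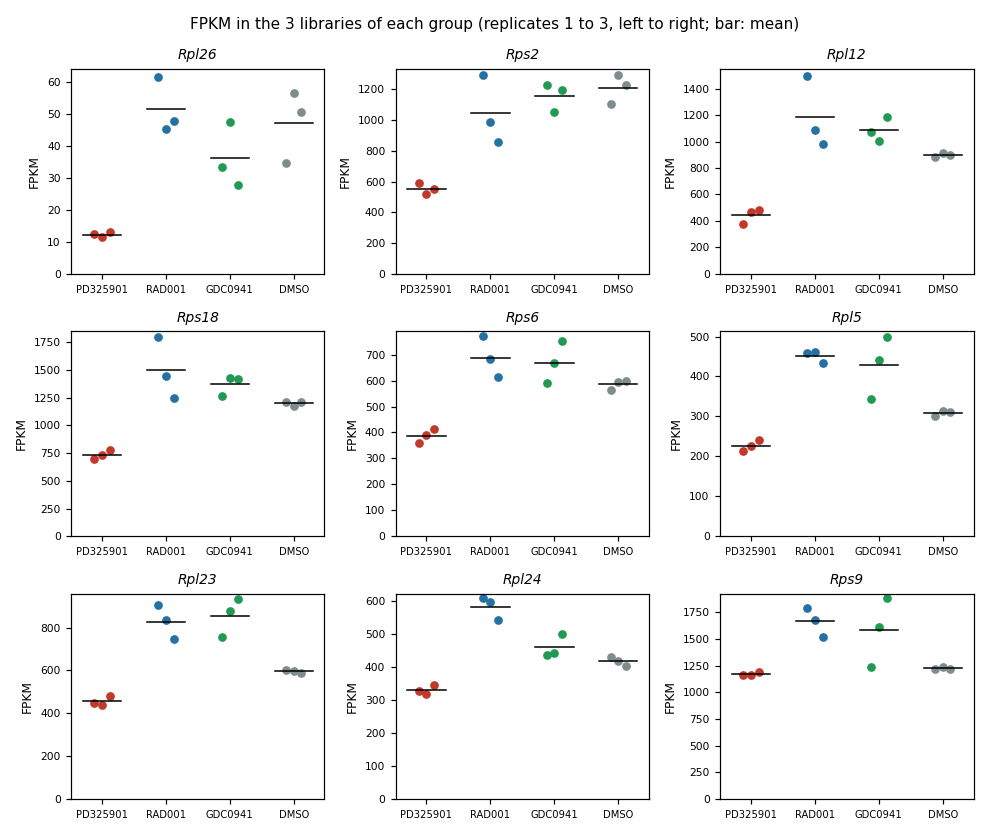
FPKM of 9 members in the 3 libraries of each group (points, replicates 1 to 3 from left to right; bars, means; all vertical axes start at 0). Rpl26, Rps2, Rpl12, Rps18 and Rps6 are lowest with PD325901, Rpl5 and Rpl23 are higher with RAD001 and GDC0941 than with DMSO, and the Rps9 groups of PD325901 and DMSO are apart but close.

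The inhibitors were also compared with each other, in the same fit over all 12 libraries. With PD325901 72 of 77 members were lower than with RAD001 and none higher, against 29.4% of all genes lower and 20.8% higher, with a median of -0.60. Set against GDC0941, 73 were lower and none higher, against 30.7% lower and 20.9% higher over all genes, with a median of -0.63. At an unadjusted limma p under 0.05 the counts were 74 and 76 lower and 0 higher. All 77 differences were negative in both comparisons, and every PD325901 library lay below every RAD001 library in 75 members (35.9% of all genes) and below every GDC0941 library in 75 members (33.5% of all genes). With quantile normalization the counts fell to 30 lower and 2 higher against RAD001 and to 39 lower against GDC0941, and leaving out any 1 library kept them at 71 to 73 and at 70 to 74. With equal total FPKM 64 and 61 members were lower and 0 higher, while the balance of all genes turned, to 18.7% lower and 32% higher against RAD001 and 20.3% lower and 29.6% higher against GDC0941. The largest of the differences from RAD001, after Rps27 (-3.29), were those of Rpl26 (-1.97), Rpl12 (-1.40), Rps18 (-1.01), Rpl5 (-0.99) and Rpl34 (-0.95). From GDC0941 they were those of Rpl26 (-1.46), Rpl12 (-1.29), Rps2 (-1.07), Rpl36a (-0.97) and Rpl34 (-0.94).

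RAD001 and GDC0941 differed in 2 members, Rps27 (3.07, adjusted p = 0.0415) and Rpl24 (0.34, adjusted p = 0.016), both higher with RAD001, against 9.35% of all genes that were higher and 8.09% that were lower. The Rpl24 call was lost without RAD001 replicate 2 (adjusted p = 0.0649), and that of Rps27 without RAD001 replicate 1 (0.1) or 3 (0.152) or without any GDC0941 library (0.0749 to 0.0889). The median difference over members was 0.01, and apart from Rps27 and Rpl26 (0.52) the differences ran from -0.32 to 0.34. Without replicate 1 of every group 16 members were lower with RAD001 than with GDC0941. The replicates of these groups were graded in opposite directions, as given above, and the part of that grading in this count was not tested.

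The comparisons with DMSO share its 3 libraries, so their changes are set side by side and joint counts are not given. Rpl30 had a change of -0.58 ± 0.25 with PD325901 (adjusted p = 0.0805) and Rpl7 one of -0.12 ± 0.11 (adjusted p = 0.375).

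Sorted by place in the ribosome, each list of members had a negative median with PD325901 and positive medians with RAD001 and GDC0941 on the deposited scale. Of the stalk, where translation factors dock, Rplp0 had 793, 938 and 969 FPKM with PD325901, 1447, 1435 and 1288 with RAD001 and 1220.2, 1428 and 1577 with GDC0941, against 1075, 1118 and 1115 FPKM with DMSO. The inhibitor values lay outside the DMSO range on either side, by -0.30 with PD325901 (adjusted p = 0.0477), 0.33 with RAD001 (0.0433) and 0.35 with GDC0941 (0.0448), with an SE of 0.11. None of these was firm: the adjusted p was 0.0506 to 0.165 for PD325901 without any 1 of the 6 libraries, 0.0928 to 0.127 for RAD001 without RAD001 replicate 1 or 2 or any DMSO library, and 0.101 to 0.147 for GDC0941 without GDC0941 replicate 2 or 3 or any DMSO library. Rplp1 fell with PD325901 by 0.39 (adjusted p = 0.0259; 0.063 to 0.0865 without PD325901 replicate 1 or 2 or DMSO replicate 2 or 3). Rplp2 had a change of -0.24 with PD325901 (adjusted p = 0.107) and rose with RAD001 by 0.37 (adjusted p = 0.0284; 0.0562 to 0.0932 without RAD001 replicate 1 or 2 or any DMSO library).

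In the 5S particle, Rpl5 fell with PD325901 by 0.44 ± 0.12 (adjusted p = 0.00904), with 214, 226 and 241 FPKM against the DMSO values given above. Rpl11, its partner, had 658, 629.8 and 661 FPKM with PD325901, against 792, 875 and 877 FPKM with DMSO. It fell without overlap by 0.38 ± 0.09 (adjusted p = 0.00561), while its changes with RAD001 (0.24, adjusted p = 0.066) and GDC0941 (0.06, adjusted p = 0.693) did not pass. Both proteins are known to bind MDM2 when ribosome assembly is disturbed.

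Of 9 proteins that line the peptide tunnel or its exit (Rpl4, Rpl17, Rpl39, Rpl19, Rpl22, Rpl23a, Rpl26, Rpl31 and Rpl35), 8 fell with PD325901 (88.9%, against 68.8% of all members), 5 rose with RAD001 (55.6%, against 36.4%) and 2 with GDC0941 (22.2%, against 26%). Over all genes tested 28.2% fell with PD325901, and 15.4% and 11.6% rose with RAD001 and GDC0941. Some calls of the list were lost when a single library was left out. These were Rpl17, Rpl23a and Rpl31 with PD325901, Rpl4, Rpl22 and Rpl23a with RAD001, and Rpl22 and Rpl23a with GDC0941. How this list differs from the other members was not tested. The medians of this list were -0.45, 0.32 and 0.24. Rpl39, the smallest of them, fell by 0.45 ± 0.10 with PD325901 (adjusted p = 0.00428) and had changes of 0.09 and 0.27 with RAD001 and GDC0941 that did not pass (adjusted p = 0.519 and 0.0754). Of 19 genes mutated in human Diamond-Blackfan anaemia 13 fell with PD325901 (68.4%, against 68.8% of all members). With RAD001 5 of them rose (26.3%, against 36.4% of all members) and with GDC0941 4 (21.1%, against 26%).

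Rps6, the substrate of S6 kinase downstream of mTOR complex 1, had 358, 389 and 415 FPKM with PD325901, 769.7, 681 and 614 with RAD001 and 589.7, 667 and 750.3 with GDC0941, against 564, 596 and 598 FPKM with DMSO. The PD325901 libraries were below all others, and the GDC0941 libraries overlapped DMSO. Rps6 fell by 0.60 ± 0.11 with PD325901 (adjusted p = 0.00119), and its changes of 0.23 with RAD001 and 0.19 with GDC0941 did not pass (adjusted p = 0.139 and 0.251). Rpsa, also known as the laminin receptor precursor, had 406, 468 and 493 FPKM with PD325901 and 914, 872 and 806 FPKM with RAD001, against 595, 666 and 644 FPKM with DMSO. Neither inhibitor overlapped DMSO: Rpsa fell with PD325901 by 0.48 ± 0.11 (adjusted p = 0.00531) and rose with RAD001 by 0.44 ± 0.11 (adjusted p = 0.0131). The X-linked members Rps4x and Rpl10 did not pass with PD325901 (-0.22 and -0.12, adjusted p = 0.0903 and 0.275).

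Rps4x rose with GDC0941 by 0.42 ± 0.10 (adjusted p = 0.0118) and with RAD001 by 0.31 ± 0.10 (adjusted p = 0.0361; 0.0657 to 0.11 without RAD001 replicate 1 or 2 or any DMSO library). Rpl10 rose with RAD001 by 0.46 ± 0.08 (adjusted p = 0.00181) and with GDC0941 by 0.25 ± 0.08 (adjusted p = 0.0466; 0.102 to 0.133 without GDC0941 replicate 2 or 3 or any DMSO library), the last turning to -0.08 with quantile normalization. Rpl41, the shortest protein of the class, fell with PD325901 by 0.43 ± 0.12 (adjusted p = 0.0139, and 0.0506 without DMSO replicate 3). Its changes of -0.27 with RAD001 and -0.08 with GDC0941 did not pass (adjusted p = 0.119 and 0.688). Rpl32, the most abundant member in DMSO, fell with PD325901 by 0.61 ± 0.11 (adjusted p = 0.000853) and had changes of -0.03 with RAD001 and 0.13 with GDC0941 (adjusted p = 0.842 and 0.423).

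Some ribosomal proteins are made as fusions with ubiquitin or a like protein. Fau, which yields Rps30, had 1076, 948 and 1009 FPKM with PD325901 and 1509, 1346 and 1131 FPKM with RAD001, against 967, 949.5 and 933 FPKM with DMSO. It overlapped DMSO with PD325901 (0.09 ± 0.12, adjusted p = 0.571) and rose with RAD001 by 0.47 (adjusted p = 0.0114). Rps27a, a fusion with ubiquitin, had 681, 624 and 652 FPKM with PD325901, against 795, 801 and 783 FPKM with DMSO, without overlap. It fell by 0.28 ± 0.10 (adjusted p = 0.0429), a call that was lost without any 1 of the 6 libraries (adjusted p 0.0545 to 0.127).

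Gnb2l1, the scaffold protein RACK1 on the head of the small subunit, fell by 0.39 ± 0.09 with PD325901 (adjusted p = 0.00561) and rose by 0.37 with GDC0941 (adjusted p = 0.0155; 0.0556 without GDC0941 replicate 3). The rise of Fau with RAD001 passed with equal total FPKM but not with quantile normalization, and that of Gnb2l1 with GDC0941 passed with neither. How these genes differ from the 77 members was not tested.

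Several members have a close paralog elsewhere in the genome, and 4 paralogs reached the minimum level. All 4 fell with PD325901, against 28.2% of all genes tested. Rpl22l1, the paralog of Rpl22, had 78.1, 60.1 and 69.4 FPKM with PD325901, 84.3, 47.1 and 35.5 with RAD001 and 125, 68.4 and 80.1 with GDC0941, against 134, 129 and 129 FPKM with DMSO. Every inhibitor library was below every DMSO library. It fell by 0.92 ± 0.28 with PD325901 (adjusted p = 0.0186; 0.0659 without PD325901 replicate 2) and by 1.31 with RAD001 (adjusted p = 0.00477), while its change of -0.57 with GDC0941 did not pass (adjusted p = 0.166).

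Rpl22 itself moved the other way with RAD001. It had 63.6, 67.9 and 73.8 FPKM with PD325901, 132, 131 and 116 with RAD001 and 110.3, 132 and 137 with GDC0941, against 93.1, 99.7 and 107 FPKM with DMSO. The PD325901 libraries lay below and those of RAD001 and GDC0941 above the DMSO range, and Rpl22 fell by 0.54 ± 0.10 with PD325901 (adjusted p = 0.00124) and rose by 0.33 with RAD001 (adjusted p = 0.0268) and by 0.33 with GDC0941 (adjusted p = 0.0333). These rises were lost without RAD001 replicate 1 or 2 or DMSO replicate 1 or 2 (adjusted p 0.0668 to 0.0912) and without GDC0941 replicate 2 or 3 or DMSO replicate 1 or 2 (0.088 to 0.11). The ratio of Rpl22l1 to Rpl22 was 1.02 ± 0.184 with PD325901, 0.436 ± 0.179 with RAD001, 0.746 ± 0.338 with GDC0941 and 1.32 ± 0.12 with DMSO (SD, n = 3 each). RAD001 did not overlap DMSO in this ratio. Rpl22 protein is known to repress Rpl22l1 expression in mouse cells.

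Rps27l, the paralog of Rps27 and a target of p53, fell by 0.72 ± 0.14 with PD325901 (adjusted p = 0.00159), and its changes of -0.32 with RAD001 and -0.01 with GDC0941 did not pass (adjusted p = 0.108 and 0.954). Rpl36al fell by 0.50 ± 0.08 with PD325901 (adjusted p = 0.000699), close to Rpl36a at -0.48 ± 0.10 (adjusted p = 0.00265). With RAD001 Rpl36al had a change of 0.09 that did not pass (adjusted p = 0.435), where Rpl36a rose by 0.35 (adjusted p = 0.0231; 0.0544 to 0.0696 without RAD001 replicate 1 or 2 or any DMSO library). Rpl7l1 fell with PD325901 by 0.29 ± 0.08 (adjusted p = 0.01). Rpl39l, Rpl10l, Rpl3l and Rps4y2 were below the minimum of 1 FPKM.

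**Figure D4:**
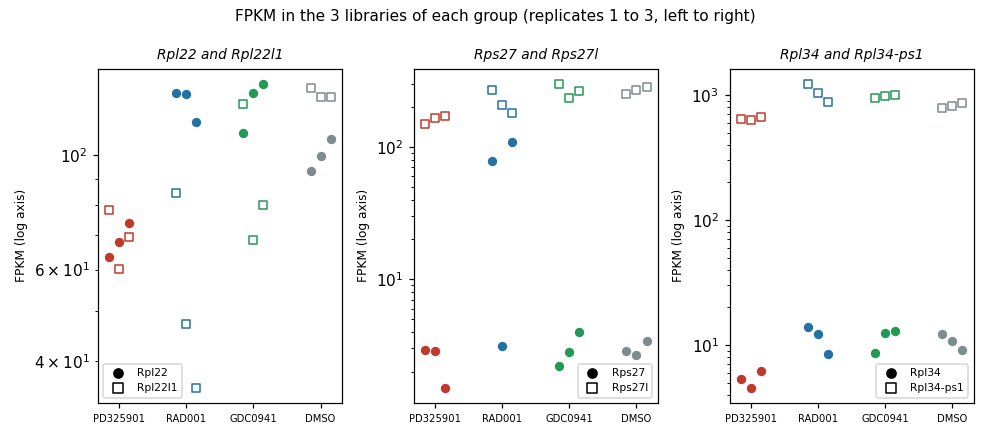
FPKM (log axis) of Rpl22, Rps27 and Rpl34 (filled circles) and of Rpl22l1, Rps27l and Rpl34-ps1 (open squares) in the 3 libraries of each group, replicates 1 to 3 from left to right. Rpl22l1 lies below Rpl22 in all RAD001 libraries and above it in all DMSO libraries, and Rps27 is high in RAD001 replicates 1 and 3 at 78.7 and 109 FPKM.

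The genes that build ribosomes also fell with PD325901. Of 30 assembly factors 28 fell (93.3%, against 28.2% of all genes) and none rose (0 also at an unadjusted limma p), with a median of -1.06, beside -0.35 for the members and -0.06 for all genes. The difference between the lists was not tested. Nop58, a core protein of box C/D ribonucleoproteins, had 6.26, 5.72 and 6.00 FPKM with PD325901, against 29.0, 32.1 and 30.6 FPKM with DMSO, far apart, and fell by 2.17 ± 0.08 (adjusted p = 2.51e-08). Mybbp1a fell by 1.26 (adjusted p = 7.63e-07) and Nop2, a methyltransferase of ribosomal RNA, by 1.26 (adjusted p = 1.24e-06). With RAD001 6 of the 30 fell (20%, against 15.9% of all genes) and 2 rose (6.67%, against 15.4%), with a median of 0.01. With GDC0941 4 rose (13.3%, against 11.6%) and none fell (against 12.7%), with a median of 0.14. At an unadjusted limma p under 0.05 the GDC0941 counts were 9 and 2. With RAD001 Ncl (nucleolin) fell by 0.57 (adjusted p = 0.000266), and Ubtf, a factor of RNA polymerase I, rose by 0.40 (adjusted p = 0.00246), a rise that did not pass with equal total FPKM. Grwd1 rose by 0.55 with GDC0941 (adjusted p = 0.00891). With equal total FPKM the medians of the list were -1.05, -0.17 and -0.02 for PD325901, RAD001 and GDC0941, beside -0.05, -0.16 and -0.14 over all genes. On that scale 9 fell and 0 rose for RAD001, where 31% of all genes fell and 7.53% rose. For GDC0941 4 fell and 1 rose, where 23.1% of all genes fell and 4.86% rose.

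The proteins of the mitochondrial ribosome are encoded by another set of nuclear genes. Of 76 such genes 45 (59.2%, against 28.2% of all genes tested) fell and none rose with PD325901 (median -0.32; 45 and 1 at an unadjusted limma p under 0.05). With RAD001 29 fell (38.2%, against 15.9% of all genes), 2 rose and 45 did not pass (median -0.24), and with GDC0941 4 fell (5.26%, against 12.7%) and 3 rose (median -0.01). The members' medians in the same comparisons were -0.35, 0.24 and 0.23. Mrps28 fell with PD325901 by 1.46 (adjusted p = 2.41e-05), and Mrpl18 fell with RAD001 by 0.83 (adjusted p = 0.00055). With equal total FPKM 57 of the list fell and 2 rose with RAD001 (median -0.42), where 31% of all genes fell and 7.53% rose (median -0.16). With GDC0941 22 fell and 2 rose on that scale (median -0.17), where 23.1% of all genes fell and 4.86% rose (median -0.14). With quantile normalization 35 fell and 2 rose with RAD001 (median -0.24), where 17.6% of all genes fell and 16.6% rose (median 0.02).

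Other genes whose mRNAs start with the oligopyrimidine motif were mixed. Of 20 listed (Fau and Gnb2l1 among them), 11 fell and 1 rose with PD325901 (median -0.33), 7 rose and 1 fell with RAD001 (median 0.17) and 5 rose and none fell with GDC0941 (median 0.21; 11 and 1 at an unadjusted limma p under 0.05). These were 55% that fell with PD325901, and 35% and 25% that rose with RAD001 and GDC0941, against 28.2%, 15.4% and 11.6% of all genes. With equal total FPKM the RAD001 median was -0.02 (4 rose, 3 fell), beside -0.16 over all genes, of which 7.53% rose and 31% fell. With quantile normalization that median was -0.04 (1 rose, 3 fell), beside 0.02 over all genes. Relative to all genes its direction turned round only with quantile normalization. The GDC0941 median was 0.03 under both scalings, beside -0.14 and 0.05 over all genes. There was 1 rise and 1 fall at equal total FPKM, where 4.86% of all genes rose and 23.1% fell. With quantile normalization there were 0 rises and 1 fall, where 14.5% of all genes rose and 12.5% fell. Tpt1, the translationally controlled tumour protein, had 5300.2, 4504 and 4045 FPKM with RAD001, against 2115, 1815 and 1871 FPKM with DMSO, without overlap. It rose by 1.25 ± 0.12 with RAD001 (adjusted p = 4.35e-05) and by 0.58 with GDC0941 (adjusted p = 0.0047), and its change with PD325901 was 0.06 (adjusted p = 0.705). Eef1a1, the factor that brings aminoacyl-tRNA to the ribosome, rose by 0.57 with RAD001 (adjusted p = 0.00203) and 0.51 with GDC0941 (adjusted p = 0.0051). With quantile normalization the rise of Tpt1 with RAD001 passed, and that with GDC0941 and both rises of Eef1a1 did not. Npm1, nucleophosmin, fell by 1.19 with PD325901 (adjusted p = 4.23e-06), Hnrnpa1 by 1.38 (adjusted p = 8.01e-06) and Eef1g fell by 1.15 (adjusted p = 1.5e-05).

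Of 12 genes that control this class of mRNAs, 5 fell with PD325901 (41.7%, against 28.2% of all genes) and 2 rose (16.7%, against 18.4%). With RAD001 1 rose and 1 fell (8.33% each, against 15.4% and 15.9% of all genes). With GDC0941 1 rose and 1 fell (8.33% each, against 11.6% and 12.7%). With PD325901 Eif4e, the cap-binding protein, fell by 1.60 (adjusted p = 1.96e-06), Larp1 by 0.66 (adjusted p = 8.14e-05), and Mlst8, a subunit of the mTOR complexes, rose by 0.85 (adjusted p = 0.000191). With RAD001 Rps6ka3, an ERK-activated kinase of ribosomal protein S6, rose by 0.67 (adjusted p = 0.0045) and Eif4e fell by 0.42 (adjusted p = 0.0121; 0.0533 without RAD001 replicate 3). With GDC0941 Rps6ka1 fell by 0.53 (adjusted p = 0.000438) and Rps6ka3 rose by 0.64 (adjusted p = 0.00748). Of 8 non-coding hosts of small nucleolar RNAs, which also start with pyrimidines, 5 fell with PD325901 (62.5%, against 28.2% of all genes), 3 with RAD001 (37.5%, against 15.9%) and none with GDC0941 (against 12.7%). None rose, and at an unadjusted limma p under 0.05 the counts with GDC0941 were 1 higher and 0 lower. Snhg1 fell by 1.42 with PD325901 (adjusted p = 8.14e-05), and Snhg5 fell by 0.94 with PD325901 (adjusted p = 0.000135) and by 0.56 with RAD001 (adjusted p = 0.0059).

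**Figure D5:**
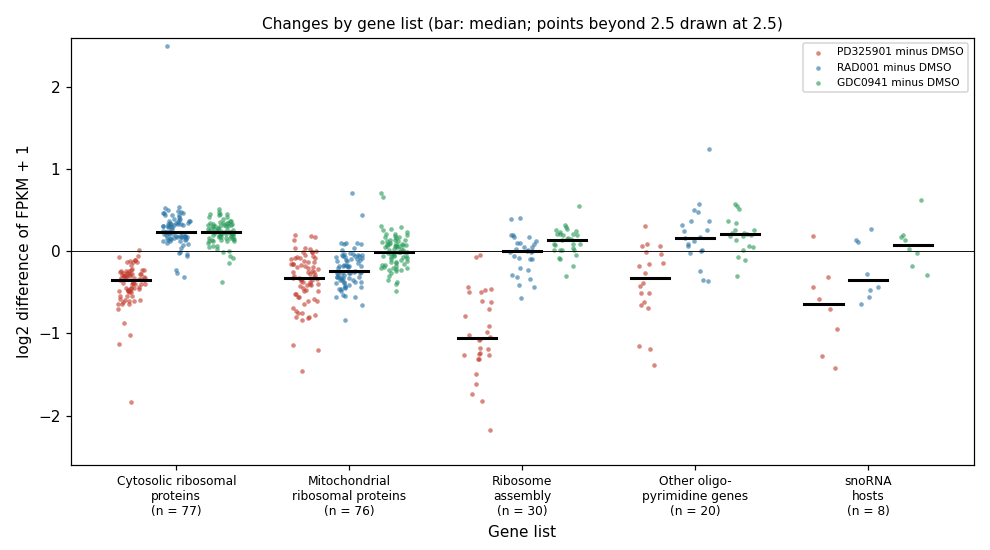
Each point is a gene with its log2 difference of FPKM + 1 from DMSO (vertical axis) for PD325901, RAD001 and GDC0941, by gene list (horizontal axis), and bars are medians. Assembly genes lie lowest with PD325901, at a median of -1.06, and mitochondrial ribosomal proteins lie at -0.24 with RAD001 where cytosolic ones lie at 0.24.

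Start motifs and change were set side by side as a description without a test. The 32 members with a run of at least 8 pyrimidines had a median change of -0.40 with PD325901, against -0.30 in the 25 matched members without one. With RAD001 the medians were 0.24 with the run and 0.33 without it, and with GDC0941 0.21 and 0.27. For CCGGAAG the medians were -0.41 with the motif and -0.32 without it for PD325901, 0.21 and 0.32 for RAD001 and 0.19 and 0.27 for GDC0941. For TCTTTCC, held by 10 members, they were -0.38 with it and -0.34 without it for PD325901, 0.31 and 0.24 for RAD001 and 0.21 and 0.23 for GDC0941. Across the 77 genes the change with PD325901 had a Spearman rho of 0.15 with the DMSO level, -0.15 with the share of windows found in other genes and -0.03 with transcript length. For RAD001 these were -0.07, 0.05 and 0.07, and for GDC0941 0.22, -0.30 and 0.12. The genes are not independent, and share the libraries.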

How the data were processed

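The authors deposited FPKM values per gene symbol, for which the submitters' processing notes name TopHat2 2.0.4, Cuffdiff and the build mm9. Not stated in those notes are the annotation, how libraries were normalized to each other and the strand setting. The members and gene lists were chosen with earlier results of these data known. With R 4.3.3 and limma 3.58.1, log2(FPKM + 1) was fitted, for the 10305 genes averaging 1 FPKM or more, with 4 group means over all 12 libraries (8 residual degrees of freedom) and eBayes with a trend. All 6 pairs of groups were compared, two-sided, with Benjamini-Hochberg adjustment over all genes tested within each comparison. Adding 1 FPKM understates the change of low genes. The procedure was tested on simulated data with independent noise in each gene and no shift of whole libraries. That test cannot show how shifts shared by many genes affect the calls.

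The genes named were, per comparison, the 6 largest rises and falls past an adjusted p of 0.05, the 5 most and 5 least abundant members, a fixed set of 17 members, the ribosomal proteins with other names, the paralogs and the 3 genes with the smallest adjusted p of each further list. The text marks genes picked outside this rule with knowledge of their values, and the 8 start sequences were picked with such knowledge. Sequence windows shared between genes were counted in GENCODE vM21 transcripts, a build other than the authors'. A few genes that this rule names are not reported here. Spi1 stands in the table under its older symbol Sfpi1.

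As a check of pairing, deviations from the group means were correlated between libraries of the same number: all 3 correlations were above 0.1 in 4 of 6 comparisons, from 0.149 to 0.583, but not for GDC0941 against DMSO (lowest 0.0354) or PD325901 against GDC0941 (lowest -0.14). Replicate 1 correlated best with replicate 1 of the other group in every comparison. In RAD001 against DMSO, GDC0941 against DMSO and PD325901 against RAD001, replicate 2 correlated best with replicate 3 and replicate 3 with replicate 2. No label speaks of pairs, so a fit with the replicate block is an alternative, beside other values added before the logarithm, other filters, 4 scalings, array weights, fits of 2 groups and fits without single libraries.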

Additional observations from a re-analysis of the deposited data

How the results depend on the processing

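Counts of ribosomal protein genes past the threshold moved by over 1.5 times as follows, and the causes were not tested. With PD325901 against DMSO 35 were lower with quantile normalization. With RAD001 against DMSO 15 were higher with no filter, 7 with equal total FPKM (2 lower), 1 with quantile normalization (8 lower) and 54 with array weights (4 lower), and 3 were lower without replicate 1 of every group. With GDC0941 against DMSO 5 were higher with no filter, 12 with either median-ratio scaling, 2 with equal total FPKM, 2 with quantile normalization (4 lower), 38 with array weights, 48 without replicate 1 of every group and 5 when only the 2 groups were fitted. With quantile normalization 30 were lower and 2 higher with PD325901 than with RAD001, and 39 were lower than with GDC0941. Between RAD001 and GDC0941 1 was higher with no filter, quantile normalization (2 lower), array weights (3 lower), without replicate 1 of every group (16 lower) or, a choice made after seeing the data, without members under 100 FPKM with DMSO, and 0 when only these groups were fitted. Leaving out 1 library gave 36 to 45 lower for PD325901, 14 to 36 higher and 0 to 2 lower for RAD001, and 4 to 34 higher for GDC0941. It gave 71 to 73 lower for PD325901 against RAD001, 70 to 74 against GDC0941, and 1 to 3 higher and 0 to 2 lower for RAD001 against GDC0941. Over all genes, equal total FPKM moved the calls with RAD001 to 7.53% higher and 31% lower and those with GDC0941 to 4.86% and 23.1%, and quantile normalization those with PD325901 to 25.6% and 24.2%. With the replicate block 48 were lower for PD325901, 28 and 19 higher for RAD001 and GDC0941, 72 and 73 lower for PD325901 against RAD001 and GDC0941, and 2 higher for RAD001 against GDC0941, so no count moved by over 1.5 times. Of the single-gene calls that were followed, 12 were lost with the block, Rpl31, Rpl35a, Rpl37, Rps16 and Rps27a with PD325901 among them. That number leaves out members called only with the block. For GDC0941 17 of the 19 members called with the block were among the 20 called without it. Signs turned with PD325901 for Rps9 (0.027) and Rps29 (0.032) with quantile normalization. That of Rpl10 with GDC0941 turned to -0.083 with quantile normalization. Counts behind the FPKM are unknown, so counting error could not be set beside these values.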
